A study of Rattus norvegicus with 6 samples.

Results

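The phagocyte NADPH oxidase is the enzyme complex with which neutrophils, monocytes, macrophages and eosinophils make superoxide. The account below covers 6 of its genes, Cybb, Cyba, Ncf1, Ncf4, Rac2 and Hvcn1, in rat subchondral bone, the bone under the joint cartilage of the knee. They were chosen by gene name. Each name had 1 row, and together they are 6 of the 22050 annotated genes in the table. RNA was sequenced in 6 libraries, S10, S12, S13, S20, S21 and S23 by title, all of which are labelled as subchondral bone cells. The study set out to compare rats kept at low and normal temperature. The labels give no temperature, treatment, strain or age for a library, so each library stands alone, no conditions were compared and no test was run. The labels do not say whether each library is its own animal.

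In a resting phagocyte the catalytic subunit gp91phox, encoded by Cybb, sits in the membrane with its partner p22phox, encoded by Cyba. On stimulation the cytosolic subunits p47phox (Ncf1) and p40phox (Ncf4) move to this pair, as does the GTPase Rac2. Electrons then pass from NADPH to oxygen, and the proton channel encoded by Hvcn1 lets out protons to balance the charge. In people, loss of the oxidase causes chronic granulomatous disease, with recurrent bacterial and fungal infections. In bone the enzyme comes mainly from the marrow, where granulocytes and monocytes are made.

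Total counts were 39990624 to 59200981 per library. The 6 genes together held from 68035 counts in S10 to 142526 in S23. These were 0.170% of all counts in S10 and 0.308% in S23. S10, S20 and S23 each stood apart in a measure other than the oxidase genes, a different one for each. In S10 the median expressed gene lay 0.39 log2 units under its mean over the libraries. In S23 the summed FPKM of the erythroid markers was 120138, against 224243 to 324057 in the other libraries. In S20 the summed FPKM of the eosinophil markers was 118, against 2043 to 5184 in the other libraries. FPKM counts fragments for each kilobase of transcript, scaled by the authors to the size of the library. Genes are called expressed where their median was 1 FPKM or more, which held for 11625 annotated genes. All 6 oxidase genes were among them.

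The regions just upstream of the oxidase genes are shown here as sequence only, and no link to the levels in the libraries was tested. The RefSeq promoter table of the assembly GRCr8 holds 3 of the 6, Cybb, Cyba and Ncf1, as 250 bases before to 50 bases after the gene start. Capitals mark matches, on either strand, to the motifs GAGGAA (core of PU.1, the transcription factor of myeloid cells), GGAANNGAAA (a composite of ETS and IRF factors), GAAANNGAAA (IRF factors), TTNNGNAA (C/EBP factors), CCAAT (the box bound by NF-Y), TATAAA (the TATA box of core promoters) and GGGCGG (the GC box bound by Sp1). The GC box was added after the sequences were seen.
Cybb (chrX:16065016-16065315, minus strand): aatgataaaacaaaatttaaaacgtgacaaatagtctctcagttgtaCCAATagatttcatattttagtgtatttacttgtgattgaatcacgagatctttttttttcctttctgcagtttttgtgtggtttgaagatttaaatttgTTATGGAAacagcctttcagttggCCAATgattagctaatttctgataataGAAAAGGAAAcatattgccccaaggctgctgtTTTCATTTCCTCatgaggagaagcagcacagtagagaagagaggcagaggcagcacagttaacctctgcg
Cyba (chr19:67404165-67404464, minus strand): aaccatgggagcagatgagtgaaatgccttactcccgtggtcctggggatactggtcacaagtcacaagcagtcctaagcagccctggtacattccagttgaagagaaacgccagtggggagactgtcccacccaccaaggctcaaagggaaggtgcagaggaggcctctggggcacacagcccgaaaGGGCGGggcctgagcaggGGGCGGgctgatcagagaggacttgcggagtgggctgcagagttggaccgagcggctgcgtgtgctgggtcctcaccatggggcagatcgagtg
Ncf1 (chr12:28121635-28121934, plus strand): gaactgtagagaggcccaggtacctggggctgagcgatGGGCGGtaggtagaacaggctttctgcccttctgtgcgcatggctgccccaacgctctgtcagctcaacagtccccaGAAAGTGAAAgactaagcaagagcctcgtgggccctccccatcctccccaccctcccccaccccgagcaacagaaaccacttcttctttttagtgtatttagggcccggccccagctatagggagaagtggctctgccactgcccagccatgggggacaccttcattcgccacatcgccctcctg

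The Cybb window held the PU.1 core on the minus strand, with its leftmost base at position -14 from the gene start. It overlapped a match to the ETS and IRF composite that begins at position -20. The composite was found in 2.94% of 33469 promoters of the same length, and the PU.1 core in 27.6%. Cybb also had an IRF match at position -52, a C/EBP match at -103 and CCAAT at -203 and -79. Ncf1 had an IRF match at position -135, a motif held by 3.92% of promoters, and a GC box at -212. Cyba had GC boxes at positions -62 and -44, a motif held by 33.1% of promoters, and no match to the other motifs. CCAAT was found in 37.5% of promoters, the C/EBP motif in 41.3% and TATAAA in 14.2%, the last in none of the 3 windows shown. A match describes the letters only and does not show that a factor binds there.

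Cybb, the catalytic subunit gene (ENSRNOG00000003622), had 103 FPKM in S10, 136 in S20, 136 in S12, 145 in S13, 159 in S21 and 219 in S23. It ranked above 94.1% to 96.9% of expressed genes in each library. The value in S23 stood apart from the rest, and the 95% exact Poisson intervals of S12 (135 to 138 FPKM) and S20 (135 to 138 FPKM) overlapped. These intervals cover counting error only.

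Cyba, whose product stabilises gp91phox and docks p47phox (ENSRNOG00000013014), had 161 FPKM in S20, 220 in S12, 323 in S13, 343 in S21, 384 in S10 and 437 in S23. Its order over the libraries differed from that of Cybb: S10, the lowest library for Cybb, was the next highest after S23 for Cyba. The lowest Cyba value lay in S20.

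Among the cytosolic subunits, Ncf1 (ENSRNOG00000001480), the organiser that bridges to p22phox, had 102 FPKM in S10, 114 in S20, 132 in S12, 139 in S13, 151 in S21 and 192 in S23. Ncf4 (ENSRNOG00000006940), which binds a phosphoinositide of the phagosome membrane, had 59.8 FPKM in S20, 62.9 in S10, 78.3 in S12, 84.8 in S13, 102 in S21 and 141 in S23. Both were highest in S23 and next highest in S21. S10 and S20 were the lowest pair for each.

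Rac2 (ENSRNOG00000007350), the GTPase of blood cells that switches the complex on, was the most abundant of the 6, with 322 FPKM in S20, 330 in S10, 370 in S12, 382 in S13, 440 in S21 and 533 in S23. It stood above 98.0% to 98.5% of expressed genes. Its ratio of highest to lowest library, 1.65, was the smallest of the 6 genes.

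Hvcn1 (ENSRNOG00000001270), the voltage-gated proton channel, was far lower, with 3.98 FPKM in S10, 7.83 in S20, 11.1 in S21, 14.8 in S13, 17.2 in S12 and 18.9 in S23. These values rest on 206 counts in S10 and on 1157 in S23. The 95% interval in S10, 3.46 to 4.57 FPKM, did not reach that of the next lowest library, S20, at 7.10 to 8.62 FPKM. The interval of S12 reached up to 18.3 FPKM and that of S23 down to 17.8 FPKM, so these intervals overlapped. The difference between S12 and S23 was not tested. Hvcn1 is also known from B cells.

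**Figure D1:**
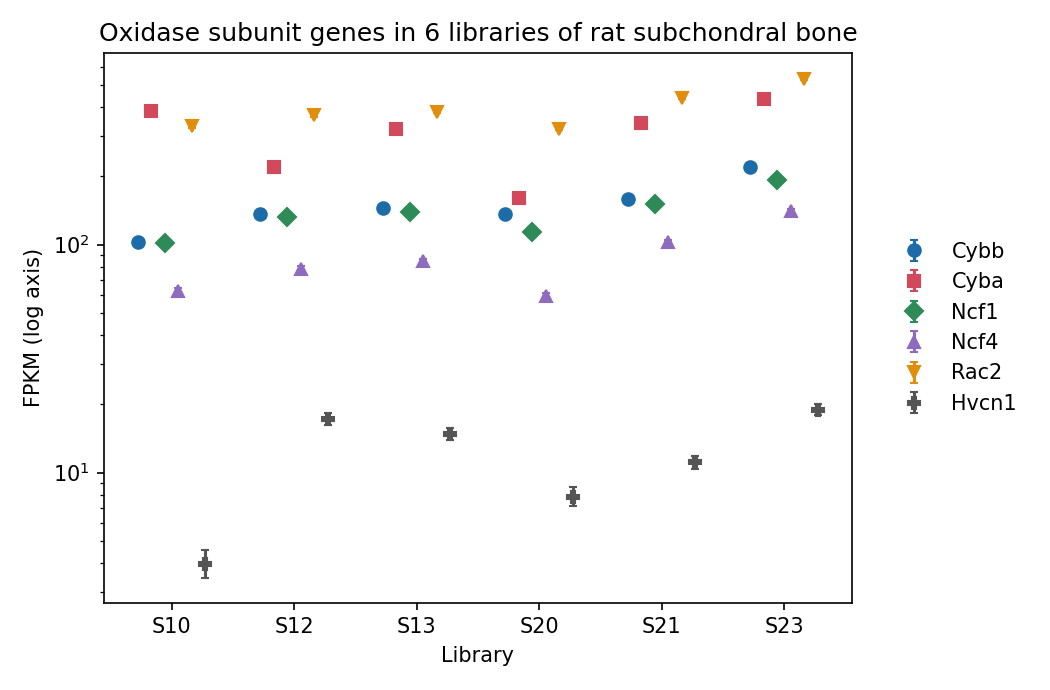
FPKM of the 6 oxidase subunit genes (y axis, logarithmic) in each of the 6 libraries (x axis). Points are single libraries and bars are 95% exact Poisson intervals, most of them smaller than the point. Rac2 and Cyba lie highest and Hvcn1 lowest, and every gene has its highest value in S23.

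By median FPKM the order was Rac2 (376), Cyba (333), Cybb (141), Ncf1 (135), Ncf4 (81.6) and Hvcn1 (12.9). FPKM are per length, so levels of different genes can be set side by side, but only roughly here, because genes of unlike length shifted differently between libraries. In S10 genes of about the Cyba length had a median deviation of 0.16 log2 units and those of the Rac2 length -0.07. The order below was not recomputed with length correction. Rac2 exceeded Cyba in 5 of 6 libraries, the exception being S10. Cybb exceeded Ncf1 in 6 of 6, but by a ratio of only 1.0 to 1.2, and their ranges over the libraries overlapped. The ranges overlapped between each other pair of neighbours in this order too, except Ncf4 and Hvcn1, whose ratio was 4.55 to 15.8.

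Ratios within a library do not depend on a scaling factor applied to the whole library. In the deposited values 3 of the genes stayed close to a fixed ratio to Cybb, and Cyba and Hvcn1 did not. The ratio of Ncf1 to Cybb stayed between 0.835 (S20) and 0.992 (S10), a 1.19-fold spread. Rac2 over Cybb spread 1.36-fold and Ncf4 over Cybb 1.47-fold. The ratios of these 3 genes to Cybb thus varied by at most 1.47-fold, while Cybb itself spread 2.13-fold.

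Cyba and Hvcn1 spread more widely. Cyba over Cybb was 1.18 in S20, 1.61 in S12, 2.0 in S23, 2.16 in S21, 2.22 in S13 and 3.75 in S10, a 3.17-fold spread. Hvcn1 over Cybb was 0.0389 in S10, 0.0575 in S20, 0.0699 in S21, 0.0863 in S23, 0.102 in S13 and 0.126 in S12, a 3.25-fold spread. The Cyba ratio was highest in S10 and the Hvcn1 ratio lowest there.

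**Figure D2:**
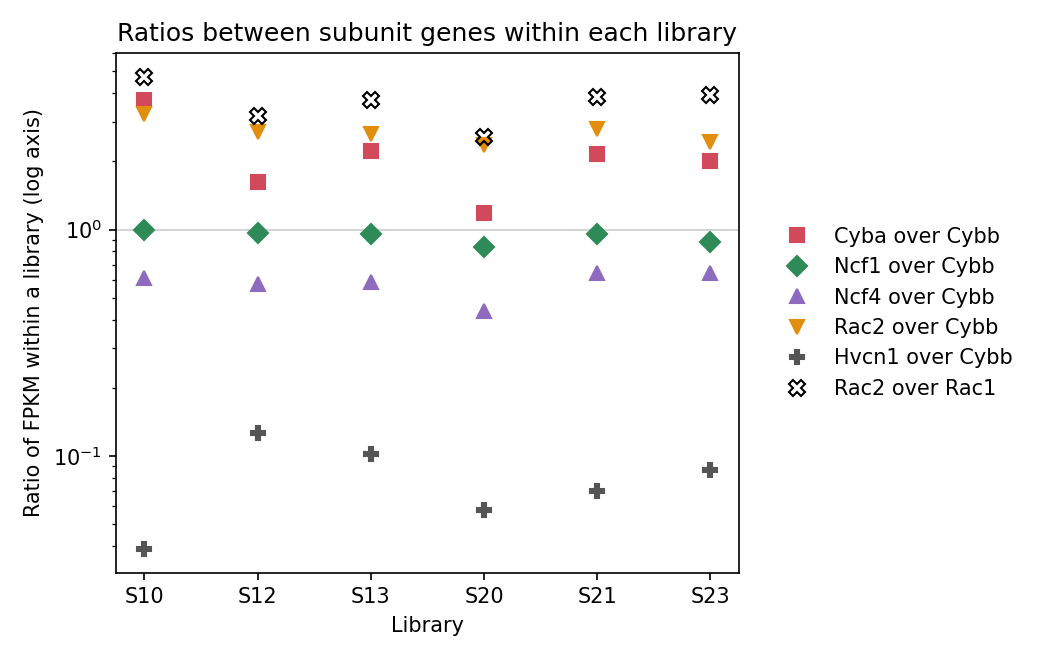
Ratios of FPKM between genes within each library (y axis, logarithmic) for the 6 libraries (x axis). Each point is 1 library. Ncf1 over Cybb lies between 0.835 and 0.992 throughout, whereas Cyba over Cybb runs between 1.18 and 3.75 and Hvcn1 over Cybb between 0.0389 and 0.126.

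The spread of the Cyba ratio was smaller once a shift by transcript length was removed from each library. The length implied by counts and FPKM was 0.839 kb for Cyba and 4.67 kb for Cybb, the shortest and the longest of the 6. The 698 expressed genes within 1.2-fold of the Cyba length had a median deviation of 0.16 log2 units in S10 and -0.25 in S20. The 1476 genes within 1.2-fold of the Cybb length had -0.56 in S10 and 0.31 in S20. With the median shift of each library removed in 20 length bins, the range of the log2 ratio of Cyba to Cybb was 0.36, against 1.66 in the deposited values. Cyba then lay among the other genes, since the range of the ratio to Cybb was 0.22 for Ncf1, 0.50 for Rac2 and 0.60 for Ncf4. For Hvcn1 it was 2.31 after this correction, against 1.46 in the deposited values, as differences in log2(FPKM + 1). Genes of the Hvcn1 length (1.30 kb) had a median deviation of -0.02 in S10, where Hvcn1 itself had -1.27. The part of length in these ratios was not tested.

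All 6 genes were highest in S23, where 24% of all expressed genes had their highest value. Among the 1412 expressed genes with a median of 50 FPKM or more, that share was 34.2%. Cybb, Ncf1 and Hvcn1 were lowest in S10, and Cyba, Ncf4 and Rac2 in S20. S10 was the lowest library for 60.1% of expressed genes and S20 for 17.1%. Of the 6 genes, 4 spanned at least 1 log2 unit between their lowest and highest library, as did 36.6% of expressed genes. The median range was 1.15 log2 units over the 6 and 0.83 over all expressed genes. Hvcn1 spanned 2.0 log2 units, Cyba 1.44, Ncf4 1.22, Cybb 1.09, Ncf1 0.91 and Rac2 0.72, all on the log2(FPKM + 1) scale, which understates the spread of low genes.

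The mean of the 6 genes, each as log2(FPKM + 1) minus its own mean over the libraries, is used as a score. It was -0.41 in S10, -0.40 in S20, -0.02 in S12, 0.09 in S13, 0.16 in S21 and 0.59 in S23, a range of 1.0. The median expressed gene, centred in the same way, stood at -0.39 in S10, -0.03 in S13, -0.02 in S21, 0.08 in S23, 0.14 in S20 and 0.21 in S12. The oxidase score therefore lay at -0.02 relative to the median gene in S10, -0.55 in S20, -0.23 in S12 and 0.51 in S23. In S10 the score averages genes that differed: Cyba stood at 0.38, Hvcn1 at -1.27 and the others at -0.50 to -0.24. In S10 the low score went with a low median of the whole library, and in S20 it did not. Without S23 the range of the score was 0.57, and 4 of the 6 genes were highest in S21. How many of all expressed genes were highest in S21 without S23 was not computed.

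Scaling by TMM factors brought the median expressed gene to -0.05 in S10. Under it 5 of the 6 genes were highest in S23, as were 18.3% of expressed genes, and Cyba was highest in S10. The score in S10 was then -0.04, and the lowest score, -0.56, lay in S20. S23 held the highest score under TMM, under length correction and in the deposited values, with 0.51, 0.51 and 0.59. Under length correction all 6 genes were highest in S23, against 21.3% of expressed genes.

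**Figure D3:**
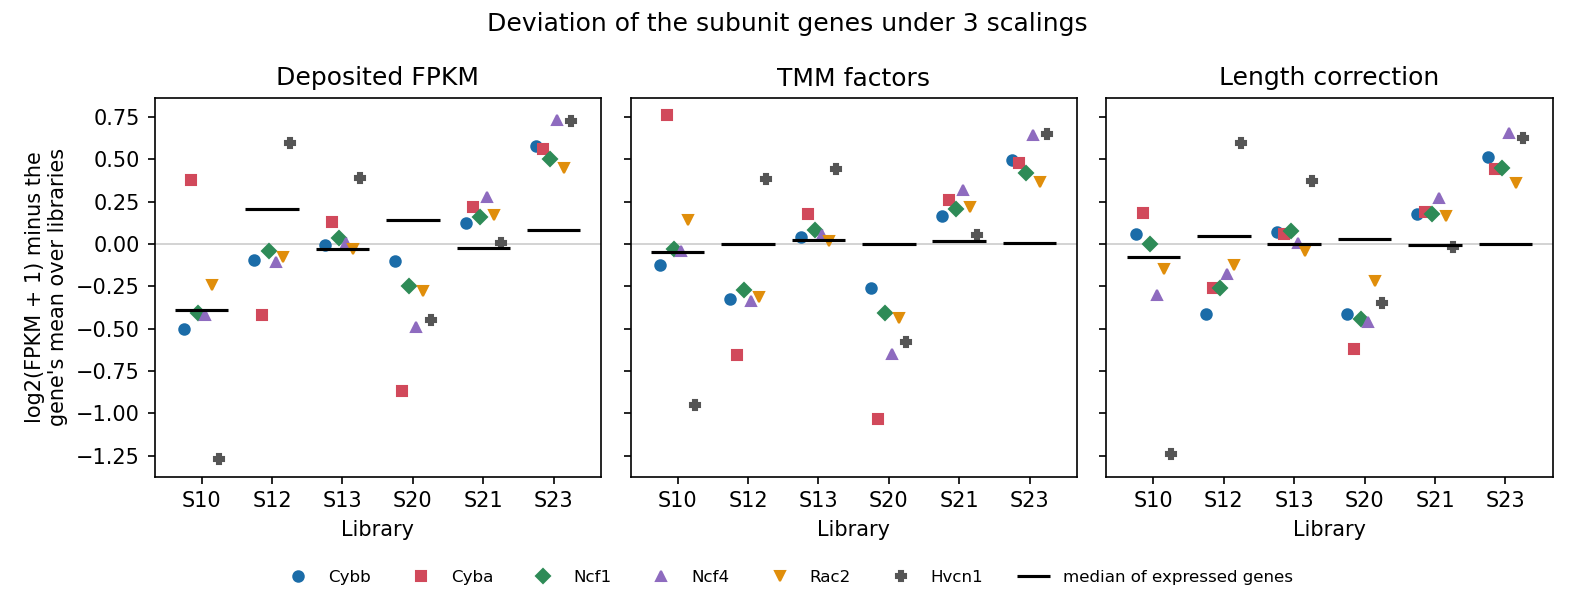
Deviation of each oxidase gene from its own mean over the libraries (y axis, log2 units) in the 6 libraries (x axis), for deposited FPKM, TMM factors and length correction. Points are genes and black lines the median of all expressed genes. In S23 all 6 points lie above the line in each panel. In S20 they lie below it in each panel, and Cyba and Hvcn1 lie farthest from the other 4 genes in S10 under TMM.

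Among the other parts of the oxidase, Rac1, the widely expressed relative of Rac2, had a median of 115 FPKM. Rac2 exceeded it in every library, by a ratio of 2.57 (S20) to 4.74 (S10). Cybc1, the chaperone needed to make the pair of gp91phox and p22phox, ranged from 21.9 FPKM in S10 to 32.6 FPKM in S23, and Cybb over Cybc1 spread 1.43-fold. Rap1a, a GTPase found with the membrane pair, ranged from 54.1 to 72.6 FPKM and was highest in S10.

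The other NADPH oxidases were close to the limit of detection. None of the 9 genes in this list reached a median of 1 FPKM. Nox4, the oxidase of kidney and vascular cells, had 3 to 15 counts per library, and Nox1, that of the colon, had 1 to 24 counts. Nox3 had 0 counts in all 6 libraries, which leaves room for at most 3 counts, or 0.0507 CPM (counts scaled to the library total) in S21 and 0.0750 CPM in S10. Duoxa2 and Duoxa1, which encode maturation factors of the dual oxidases, had the highest medians of the list at 0.610 and 0.460 FPKM. Against them the lowest value of Cybb was 103 FPKM.

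Genes that act before assembly were present throughout. In a list of 14 genes, mainly kinases, exchange factors and Rac regulators, 13 had a row and all of these were expressed. Arhgdib, an inhibitor in blood cells that holds Rac2 in the cytosol, had a median of 673 FPKM. Coro1a, an actin-binding protein of leukocytes, had 530 FPKM, whereas the kinases Prkcd and Prkcb had 30.3 and 7.76 FPKM. Of the 13, 11 were highest in S23 in the deposited values and under TMM. Of all expressed genes 24% and 18.3% were highest there. With FPKM brought to a common sum without the 4 globin rows, 5 were highest in S23. The share of all expressed genes was not computed at that setting. The exceptions in the deposited values were Syk and Prex1, both highest in S12.

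Most receptors that trigger the burst had the same library at the top. All 12 in the list were expressed. Of these, 11 were highest in S23, against 24% of all expressed genes, and Fcgr3a was highest in S12. Fpr1, the receptor for bacterial formyl peptides, had 5.18 FPKM in S10 and 32.5 FPKM in S23. Itgam and Itgb2, the chains of the integrin Mac-1, had medians of 44.1 and 72.6 FPKM. Fcer1g, the signalling chain of Fc receptors, had 425 FPKM. Of the 12, 10 were highest in S23 under TMM, against 18.3% of all expressed genes.

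Enzymes that supply NADPH had levels that differed widely between genes. Taldo1 and Tkt of the pentose phosphate pathway had medians of 447 and 394 FPKM, and Pgls of the same pathway had 46.8 FPKM. Idh1 and Me1, a dehydrogenase and a malic enzyme that also make NADPH, had 20.5 and 15.2 FPKM. Of 5 such genes with a row, 3 were highest in S23 in the deposited values and under TMM. Of all expressed genes 24% and 18.3% were. Of 12 enzymes that use or remove the oxidants, 5 were highest in S23 and 5 in S10, where 11% of expressed genes had their highest value. This split moved with the scaling. Under TMM 4 were highest in S23 and 7 in S10, which was then the highest library for 32.7% of expressed genes. With FPKM brought to a common sum, 8 were highest in S23 and 1 in S10. The share of all expressed genes was not computed at that setting. Mpo, the myeloperoxidase of granulocytes, ranged from 370 to 853 FPKM. Cybb over Mpo spread 1.25-fold, the least of the 6 oxidase genes, while Cyba over Mpo spread 3.47-fold and Hvcn1 over Mpo 2.61-fold. Gpx1 had a median of 2083 FPKM and Sod1 of 302 FPKM, both highest in S10 in the deposited values. Sod2, the mitochondrial superoxide dismutase, had 133 FPKM in S23 and a median of 71.1 FPKM.

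Of 8 transcription factors known from human and mouse work on these genes, 6 had a row and all 6 were expressed. Spi1, which encodes PU.1, ranged from 64.7 FPKM in S20 to 156 FPKM in S23. Cebpe, a factor of late granulocyte maturation, had a median of 58.2 FPKM and Irf8, a factor of monocytes, had 41.3 FPKM. In 5 of 6 the highest library was S23, in the deposited values and under TMM, against 24% and 18.3% of all expressed genes. The other in the deposited values was Elf1, highest in S12, and under TMM the other was highest in S20.

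Because the tissue is a mixture of cells, fewer cells of a type and less RNA per cell cannot be told apart, and the levels of cell type markers are given beside the oxidase genes. Of 11 neutrophil markers, 10 were expressed, and their summed level ranged from 17328 FPKM in S20 to 75362 FPKM in S23. Most of the sum came from S100a8 and S100a9, with 25798 and 37587 FPKM in S23 and 4299 and 8517 FPKM in S20. The score of the 10 markers was 0.86 in S23 and -0.70 in S20, with 9 of 10 highest in S23, and 8 of 10 under TMM. The shares of all expressed genes highest in S23 were 24% and 18.3%. The marker not called expressed was Ltf, with 0 to 5 counts per library. All 5 precursor markers, among them Elane and Mpo, were highest in S23, and their score there was 0.72. Mpo is also among the enzymes that use the oxidants. The neutrophil and precursor scores shared their highest library, S23, with the oxidase score. They were lowest in S20, whereas the oxidase score was -0.41 in S10 and -0.40 in S20. Scores of leukocyte (0.57), activation (0.48), regulator (0.44), NADPH supply (0.36) and osteoclast lists (0.26) were also highest in S23 in the deposited values. Those of monocyte, eosinophil, B cell, T and NK cell, erythroid and osteoblast markers were highest elsewhere. Under TMM the osteoclast score was highest in S10 (0.44, against 0.19 in S23). The NADPH supply score was highest in S10 under median-ratio factors, and the activation score in S12 with a common sum without the globin rows. The part of the markers in the oxidase score was not tested.

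Other cell types that carry the oxidase had another order. Of 10 monocyte and macrophage markers 9 had a row and 8 were expressed, while Marco had 0 counts in all libraries. Their summed level ranged from 433 FPKM in S20 to 668 FPKM in S12. Their score was -0.02 in S23, where 2 of 8 were highest, as were 24% of all expressed genes. All 5 eosinophil markers were expressed, and their sum was 118 FPKM in S20, against 2043 to 5184 FPKM in the other libraries. Prg2 made up 96.0 FPKM of the sum in S20. Of the 5, 4 were lowest in S20, as were 17.1% of all expressed genes. Ccr3 had 5.59 FPKM in S20 and was lowest in S23, at 4.72 FPKM. S20 was also the library with the lowest oxidase score relative to the median gene. The part of the eosinophil markers in this was not tested.

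B cell markers, which are relevant to Hvcn1, had their lowest score in S23 (-0.89) and their highest in S12 (0.76). The highest moved to S10 under TMM, and the lowest to S21 when FPKM were brought to a common sum. Hvcn1 was high in both S23 and S12. None of the 5 B cell markers with a row was highest in S23, against 24% of all expressed genes, and none was at 0. Their sum ranged from 45.7 to 148 FPKM. Of 6 osteoclast markers 4 were expressed, with sums of 410 FPKM in S21 to 805 FPKM in S23. The 4 markers of all leukocytes were highest in S23, where 24% of all expressed genes were. It was 3 of them with a common sum without the globin rows. Cybb over Ptprc, the common leukocyte antigen, spread 1.87-fold, from 2.32 in S12 to 4.35 in S10. This was the smallest spread over Ptprc among the oxidase genes, and the largest was 4.63-fold, for Cyba. The osteoblast markers Bglap, Col1a1, Sp7, Alpl and Ibsp were all expressed, with sums of 628 to 982 FPKM. The liver marker Alb had 0 counts in all libraries.

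**Figure D4:**
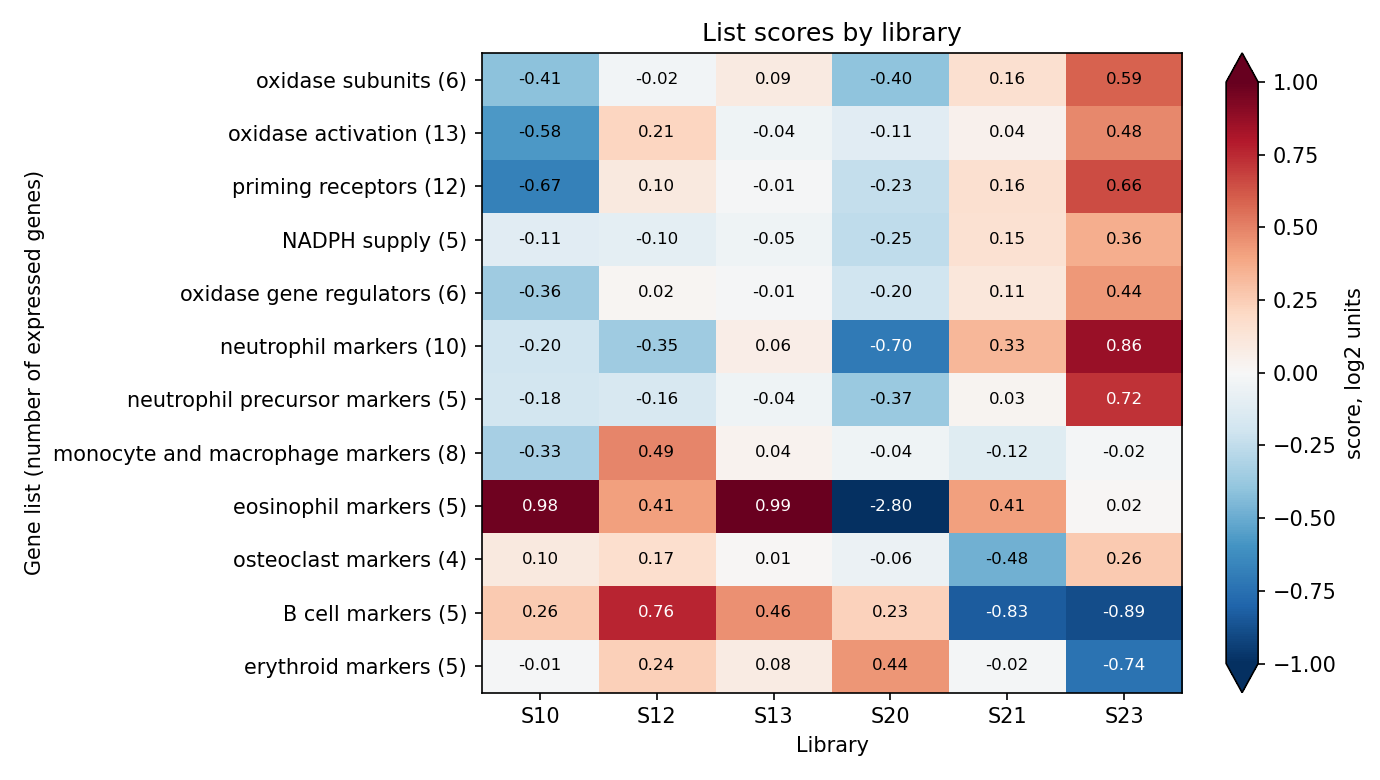
Score of each gene list (rows, with the number of expressed genes in brackets) in the 6 libraries (columns). The score is the mean over genes of log2(FPKM + 1) minus the gene's mean over the libraries, and the colour stops at 1 and -1. In the deposited values shown, the oxidase genes and the neutrophil, precursor, receptor, activation, regulator, NADPH supply and osteoclast lists have their highest scores in S23. The oxidase genes stand at 0.59 there. Cxcr2 is in both the neutrophil and the receptor list. Eosinophil markers fall outside the colour scale in S20, at -2.80.

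The genes with the profile most like that of the oxidase genes were sought among the 5493 annotated genes whose median reached 10 FPKM, by the root mean square over the 6 libraries of the difference in centred log2(FPKM + 1). The search used the deposited FPKM only, so shifts of a whole library and by length enter the distances. The nearest gene was Tm6sf1, at 0.044 log2 units, with 30.8 FPKM in S10 and 62.3 FPKM in S23. Clec4d, a C-type lectin receptor of myeloid cells, followed at 0.057, Sla, a Src-like adaptor, at 0.065, and S1pr4, a sphingosine phosphate receptor of blood cells, at 0.067. The other 6 were Nfil3, Mob3a, Anxa2, the formyl peptide receptor gene Fpr2, LOC308990 and Ralb, at 0.069 to 0.083. Among the oxidase genes themselves the distance from their mean was 0.077 for Ncf1, 0.094 for Ncf4, 0.12 for Rac2, 0.14 for Cybb, 0.41 for Cyba and 0.46 for Hvcn1. The median of all genes searched was 0.38, so Cyba and Hvcn1 lay farther from the mean profile than the median gene. With length correction the distance was 0.20 for Cyba and 0.52 for Hvcn1, and the median gene lay at 0.35, so this held for Hvcn1 but not for Cyba. The closest pair was Ncf1 and Rac2, at 0.079, followed by Cybb and Ncf1 at 0.086.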

How the data were processed

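The 6 RNA-seq libraries came from rat subchondral bone. An RNeasy kit was used for RNA and a SMARTER mRNA-Seq kit for libraries, per the labels' protocols. The deposited counts are whole numbers per gene with no normalization. The deposited FPKM are the authors' own, and their sums differ between libraries. The submitters' processing notes name GRCm38 and mm10. These are mouse builds, but the genes carry rat Ensembl IDs. The build is therefore not settled and no positions are given for the expression values. The labels name no aligner or counter.

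Of 30610 rows, 10 held no values and were left out. All value columns were used. No library could be placed in a group, so each value belongs to 1 library, or is a median or range over them. The oxidase genes and gene lists were chosen with earlier results of these data known. The text names the oxidase genes, genes of the fixed lists, and the 10 nearest genes by profile. Some genes of the lists are not reported here. Of the 139 list entries used, the oxidase genes included, 7 had no row. Values were used as log2(FPKM + 1), and 95% intervals are exact Poisson. TMM factors came from edgeR 4.0.16. Alternatives were a pseudocount of 0.1, TMM and median-ratio factors, common FPKM sums and leaving out each library. Length correction was added after the data were seen. The search for like profiles and the length correction were checked on simulated data. RefSeq (GRCr8) gave the promoters and matched 6 of 6 genes by symbol.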

Additional observations from a re-analysis of the deposited data

How the results depend on the processing

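The score of the oxidase genes had a range of 1.0 log2 units over the libraries. It was 1.04 with a pseudocount of 0.1, 1.07 under TMM factors, 1.06 under median-ratio factors, 1.35 with FPKM brought to a common sum, 0.89 with a common sum without the globin rows, and 0.93 with length correction. With the median over genes in place of the mean it was 0.99. Leaving out 1 library at a time gave 0.57 (without S23) to 1.0. The number of genes highest in the same library was 5 or 6 of 6 under each scaling, always S23, and 4 to 6 when leaving out 1 library, the 4 being in S21 without S23. Under TMM and median-ratio factors the exception was Cyba, highest in S10, and without the globin rows it was Hvcn1, highest in S12. The lowest score lay in S20, not S10, under TMM, median-ratio factors and length correction. The causes of these shifts were not tested. With a minimum median of 1 FPKM, 8 of the 10 nearest genes were shared. The search for nearest genes was not repeated under other scalings. Without a filter on low values 21.4% of annotated genes with any count were highest in S23. Among the scalings, the share over expressed genes was computed only for the deposited values, TMM and length correction. With a library left out this share was not computed. No paired analysis was possible because the labels give no groups. Depth limits mainly Hvcn1, with 206 counts in S10, and the other NADPH oxidases.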
